A study of Glycine max with 54 samples.

Results

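The JAZ (jasmonate ZIM-domain) genes were followed through soybean aphid infestation of soybean leaves. They are 8 genes, chosen by their identifiers, of 53971 loci with values (48764 annotated genes and 5207 loci assembled by the authors' pipeline). The study's tables name 5 of them, GLYMA13G17180 (JAZ1), GLYMA01G41290 (JAZ2), GLYMA15G19840 (JAZ2), GLYMA07G04630 (JAZ6) and GLYMA09G09100 (JAZ12). The other 3, GLYMA11G04130, GLYMA09G08290 and GLYMA13G17640, are given by identifier only. Leaves came from the susceptible genotype Dongnong47, from P203, which shows antixenosis (aphids avoid it), and from P746, which shows antibiosis (aphids do poorly on it). Leaflets of a trifoliolate either bore 6 aphids each in a cage (infested) or had a cage without aphids (mock). Plants grew at 26 °C under light for 16 h a day, and the caged areas were taken 24, 48 and 96 h after infestation (HAI). Each of the 18 groups had 3 replicates, which gives 54 libraries.

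JAZ proteins are the repressors of jasmonic acid (JA) signalling. In Arabidopsis they bind MYC2 (JIN1), a bHLH transcription factor that switches on JA-responsive genes, and hold it inactive. When the active hormone, the isoleucine conjugate made by JAR1, joins JAZ to the receptor COI1, the JAZ protein is degraded and MYC2 is freed. Many JAZ genes are themselves transcribed in response to JA, so that the repressor is made anew, and their transcripts are widely read as a sign of JA signalling in wounded or chewed leaves.

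Levels are CPM, the counts of a gene relative to the TMM-scaled library total, and a change is a log2 fold change from edgeR. A gene was called at a Benjamini-Hochberg adjusted p under 0.05 over all loci tested together with a log2 fold change of 1 or more in either direction. Since gene lengths were not used, levels are compared between libraries and not between genes.

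Several libraries stood apart before any JAZ gene was considered. Totals ran from 16596469 to 34982790 counts. GLYMA15G19840 had a value in 46 libraries and none in 8, all mock, namely Dongnong47 at 96 HAI replicates 1 and 2, P203 at 96 HAI replicates 1 and 2, P746 at 48 HAI replicates 1 and 2, and P746 at 96 HAI replicates 2 and 3. In these 8 libraries 10 to 15 of its 20 abundant neighbours in identifier order had no value either, so its absence there cannot be read as a lack of transcript. It is left out of the counts of members in comparisons that include these libraries. GLYMA11G04130 had no value only in P746 mock at 96 HAI replicate 1, where it was taken as 0. Abundant genes of chromosomes 14 to 20 also lacked values elsewhere, up to 53.5% of them in Dongnong47 mock at 96 HAI replicate 3. On chromosomes 1 to 13 at most 0.319% did, in P203 mock at 24 HAI replicate 2. Absent values were taken as 0 in the fits, so shares over all loci can hold such losses. In 67 genes that separated Dongnong47 from P203 in mock libraries at 24 HAI, Dongnong47 infested at 96 HAI replicate 1 had the Dongnong47 state in 7.46%, against at least 80.6% in the other libraries labelled Dongnong47, and P746 infested at 48 HAI replicate 3 had it in 83.6%. In 68 genes that separated P203 from P746, the libraries labelled P746 had the P203 state in 92.6%, 4.41% and 45.6% at 24 HAI infested and in 55.9% to 95.6% at 48 and 96 HAI. Assembled loci, which are named anew in each assembly, were shared between mock and infested libraries at 24 and at 48 HAI (median share 0.606 and 0.519), but hardly between 24 and 48 HAI (0.0131), between mock and infested libraries at 96 HAI (0.0158) or between mock libraries at 96 HAI and those at 48 HAI (0.0148). Infested libraries at 96 HAI did share them with those at 48 HAI (0.514). An assembly batch and the compared condition therefore cannot be told apart for 48 against 24 HAI, for mock leaves at 96 against 48 HAI or for infestation at 96 HAI.

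In Dongnong47 at 24 HAI, the transcripts of several JAZ genes were many times more abundant in infested than in mock leaves. These are whole leaf areas, so a change in the number of cells of a type and a change in RNA per cell cannot be told apart. Leaf marker genes were not checked, since no table used here pairs the identifiers with their names. Of the 8 members, 4 were called higher and none lower, where 0.663% of all loci tested were called higher. The study named 5 members in its table of JA genes, which it drew from genes differential in these same libraries. Counts of members called, here and below, are therefore not independent of that choice. For 6 members the infested libraries lay above every mock library. The share of all loci set apart in this way is not given, here or below, so such counts have no background to be read against. The median log2 fold change over the 8 members was 3.32, and the median over the genes of chromosomes 1 to 13 was -0.06.

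GLYMA13G17180 (JAZ1) had 8.63, 25.1 and 18.3 CPM in the mock libraries of Dongnong47 at 24 HAI and 169, 276 and 224 CPM in the infested ones. The groups did not overlap, and the log2 fold change was 3.66 (SE 0.50, edgeR adjusted p = 0.0467). GLYMA01G41290 (JAZ2) had 7.35, 15.2 and 19.99 CPM in mock and 166, 249 and 232 CPM in infested libraries. Its lowest infested library was well above its highest mock library, with a log2 fold change of 3.91 (SE 0.47, edgeR adjusted p = 0.0323). GLYMA15G19840, the other gene named JAZ2, had 18.2, 36.02 and 39.5 CPM in mock and 206, 281 and 262 CPM in infested libraries, without overlap (log2 fold change 2.98, SE 0.38, edgeR adjusted p = 0.039). GLYMA09G08290, which carries no name, had 11.1, 21.1 and 24.5 CPM in mock and 270.1, 359 and 332 CPM in infested libraries (log2 fold change 4.07, SE 0.40, edgeR adjusted p = 0.0182), the smallest adjusted p of the members.

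GLYMA11G04130 had the largest estimate but was not called. Its mock libraries had 3.15, 10.3 and 13.2 CPM and its infested libraries 157, 247 and 216 CPM, apart in every library (log2 fold change 4.52, SE 0.63, edgeR adjusted p = 0.0503). GLYMA07G04630 (JAZ6) had 37.7, 33.9 and 83.4 CPM in mock and 151, 154 and 152 CPM in infested libraries, also apart, with a log2 fold change of 1.55 (SE 0.39, edgeR adjusted p = 0.281). The remaining pair overlapped between the groups. GLYMA09G09100 (JAZ12) had 90.5 to 235 CPM in mock and 111 to 130.1 CPM in infested libraries, and GLYMA13G17640 had 27.1 to 43.1 CPM in mock and 26.7 to 31.3 CPM in infested libraries. DESeq2 called 6 members, with 720 of 34534 loci called higher, against 229 with edgeR. The count of 4 rested on single libraries: leaving out mock replicate 1, mock replicate 3, infested replicate 2 or infested replicate 3 gave 0 calls, leaving out mock replicate 2 gave 1, and it was 1 when libraries were scaled by the totals of chromosomes 1 to 13.

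**Figure D1:**
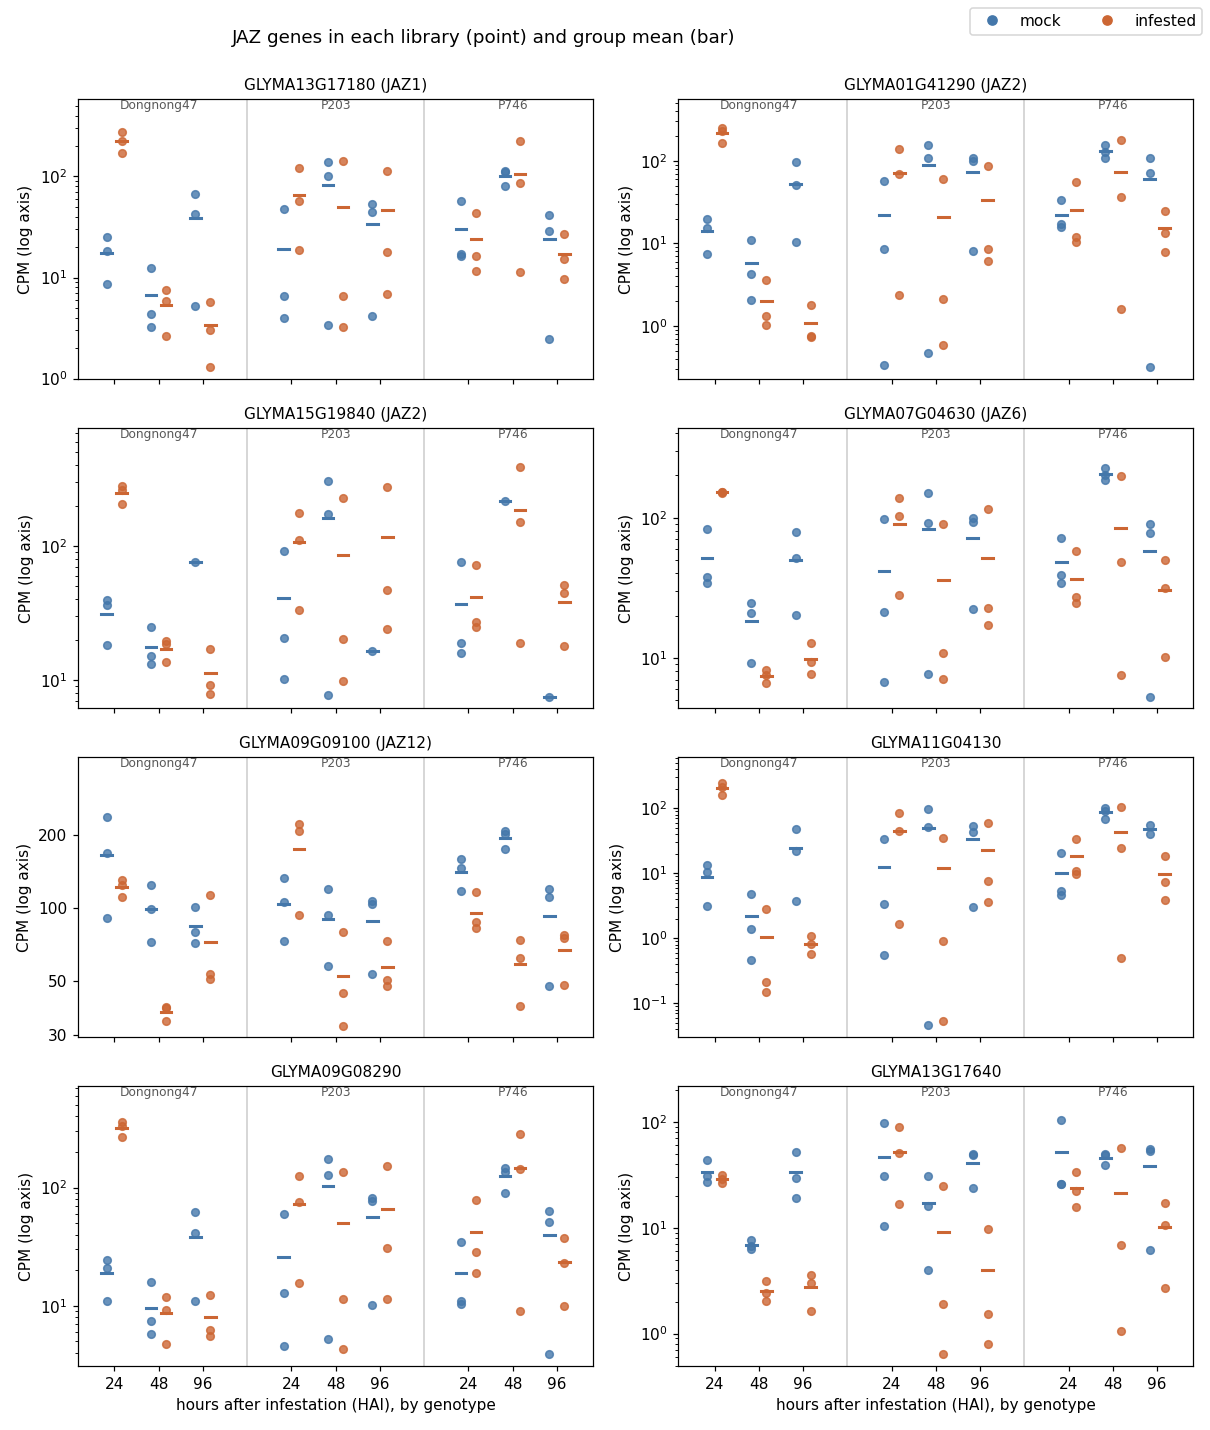
CPM (log axis) of each JAZ gene against hours after infestation in the 3 genotypes, with 1 point per library (blue mock, orange infested) and a bar at the group mean; libraries without a value are not drawn. In Dongnong47 at 24 HAI the infested points of 6 genes lie above all mock points, while in P203 and P746 points of the same group are often spread over more than an order of magnitude.

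Within infested Dongnong47, all 8 members were lower at 48 than at 24 HAI, every 48 HAI library lay below every 24 HAI library for each of them, and 16.2% of all loci tested were called lower. The call held for all members under each alternative, with 7 of 7 in the fit restricted to chromosomes 1 to 13 and 8 of 8 with any library left out. This comparison shares its 24 HAI libraries with the comparison against mock leaves above. The assembly batches differ between these times, and depth did too (median total 25886354 against 19199850 counts over all libraries of the time).

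The largest falls were those of GLYMA11G04130, GLYMA01G41290 and GLYMA13G17180. GLYMA11G04130 went from the infested values given above for 24 HAI to 0.212, 2.79 and 0.148 CPM at 48 HAI (log2 fold change -7.61, SE 1.40, edgeR adjusted p = 0.00833). GLYMA01G41290 (JAZ2) stood at 1.33, 3.59 and 1.03 CPM at 48 HAI (log2 fold change -6.76, SE 0.64, edgeR adjusted p = 0.00151). GLYMA13G17180 (JAZ1) stood at 5.89, 7.53 and 2.66 CPM at 48 HAI (log2 fold change -5.38, SE 0.50, edgeR adjusted p = 0.00144).

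GLYMA09G08290 fell by 5.22 on the log2 scale. GLYMA07G04630 (JAZ6) had a log2 fold change of -4.36 and GLYMA15G19840 (JAZ2) of -3.87. GLYMA13G17640 and GLYMA09G09100 (JAZ12), which overlapped between infested and mock leaves at 24 HAI, were lower at 48 HAI as well. GLYMA13G17640 had 2.44, 2.05 and 3.15 CPM at 48 HAI (log2 fold change -3.51, SE 0.20, edgeR adjusted p = 0.0009), and GLYMA09G09100 had 39.1, 34.2 and 38.7 CPM (log2 fold change -1.72, SE 0.12, edgeR adjusted p = 0.00106). In mock Dongnong47 over the same interval, all 8 estimates were negative but smaller (median -1.44 against -4.79 in infested leaves), and only GLYMA13G17640 was called, from 27.1, 30.6 and 43.1 CPM to 6.35, 7.62 and 6.67 CPM (log2 fold change -2.38, SE 0.25, edgeR adjusted p = 0.0176, 1.46% of loci called lower). That call was lost without mock replicate 1 or 3 of 24 HAI or replicate 1 or 2 of 48 HAI.

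Against mock leaves of the same time, infested Dongnong47 was lower at 48 HAI in 2 members, with 3.28% of loci called lower. GLYMA09G09100 (JAZ12) had 72.7, 98.9 and 124 CPM in mock leaves, above the infested values given for 48 HAI (log2 fold change -1.37, SE 0.21, edgeR adjusted p = 0.032). GLYMA13G17640 was likewise above its infested libraries in each mock library (log2 fold change -1.40, SE 0.24, edgeR adjusted p = 0.0371). GLYMA07G04630 (JAZ6), with 9.14, 24.6 and 20.9 CPM in mock and 8.17, 7.53 and 6.6 CPM in infested libraries, did not overlap but missed the threshold (edgeR adjusted p = 0.0958). The other 5 overlapped. Scaling by chromosome 1 to 13 totals, which moved the median of these genes to 0.53, left 0 members called, as did dropping mock replicate 2, mock replicate 3, infested replicate 1 or infested replicate 2.

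At 96 HAI, 3 of the 7 members with a value in every library were called lower in infested Dongnong47, with 2.4% of loci called lower. The fit of chromosomes 1 to 13 called 2 members, with 166 of 22775 loci called lower. GLYMA01G41290 (JAZ2) had 10.3, 95.7 and 50.9 CPM in mock and 0.749, 1.79 and 0.729 CPM in infested libraries (log2 fold change -5.58, SE 0.997, edgeR adjusted p = 0.0233). GLYMA11G04130 had 3.75, 47.4 and 22.4 CPM in mock and 0.807, 1.1 and 0.567 CPM in infested libraries (log2 fold change -4.89, SE 1.01, edgeR adjusted p = 0.0373). GLYMA13G17640 had 18.9, 52.2 and 29.7 CPM in mock and 3.57, 3.01 and 1.62 CPM in infested libraries (log2 fold change -3.62, SE 0.54, edgeR adjusted p = 0.0118). These groups did not overlap, but mock replicate 1 was the lowest of its group for 6 of the 7 members.

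GLYMA07G04630 (JAZ6) had 20.3, 78.5 and 51.4 CPM in mock and 7.61, 12.7 and 9.31 CPM in infested libraries at 96 HAI, without overlap and without a call (edgeR adjusted p = 0.0556). GLYMA13G17180 (JAZ1), with 5.25, 67.3 and 42.7 CPM in mock and 3.05, 5.73 and 1.3 CPM in infested libraries, overlapped through mock replicate 1. GLYMA15G19840 had a value in 1 mock library only, 75.5 CPM, against 9.22, 16.9 and 7.85 CPM in infested libraries, and with the other mock libraries left out its log2 fold change was -2.73. That estimate rests on 1 mock library and is given with no test. Computed in the same way against 1 mock library each, it was 2.78 in P203 and 2.33 in P746 at 96 HAI. Those mock libraries, P203 replicate 3 and P746 replicate 1, were the lowest of their groups for all 7 members of chromosomes 1 to 13. The median log2 fold change of these 7 members was -0.56 in P203 and -0.88 in P746. The 2 positive values are therefore not read as a rise. Dropping infested replicate 1, the library whose markers went against its label, left 1 call. Dropping infested replicate 3 left 1 as well, dropping infested replicate 2 left 0, and dropping mock replicate 1 gave 6. No share of loci called is given for those fits. DESeq2 called 6, with 2775 of 33277 loci called lower, against 800 with edgeR.

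In mock leaves of Dongnong47, 1 of 7 members was called higher at 96 than at 48 HAI, where assembly batch cannot be told apart from time. It was GLYMA13G17640 (log2 fold change 2.30, SE 0.41, edgeR adjusted p = 0.0166, 8.09% of loci called higher), from the mock values given above for the same gene. The other estimates were positive in 5 of 6 members. DESeq2 called 6, with 3972 of 32819 loci called higher, against 2656 with edgeR. The edgeR count was 0 without any one of the 48 HAI replicates and 4 without 96 HAI replicate 1, with no share of loci called given for those fits. In infested Dongnong47 no member was called from 48 to 96 HAI by edgeR (2.44% of loci called) or DESeq2, and 1 had an unadjusted p under 0.05.

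**Figure D2:**
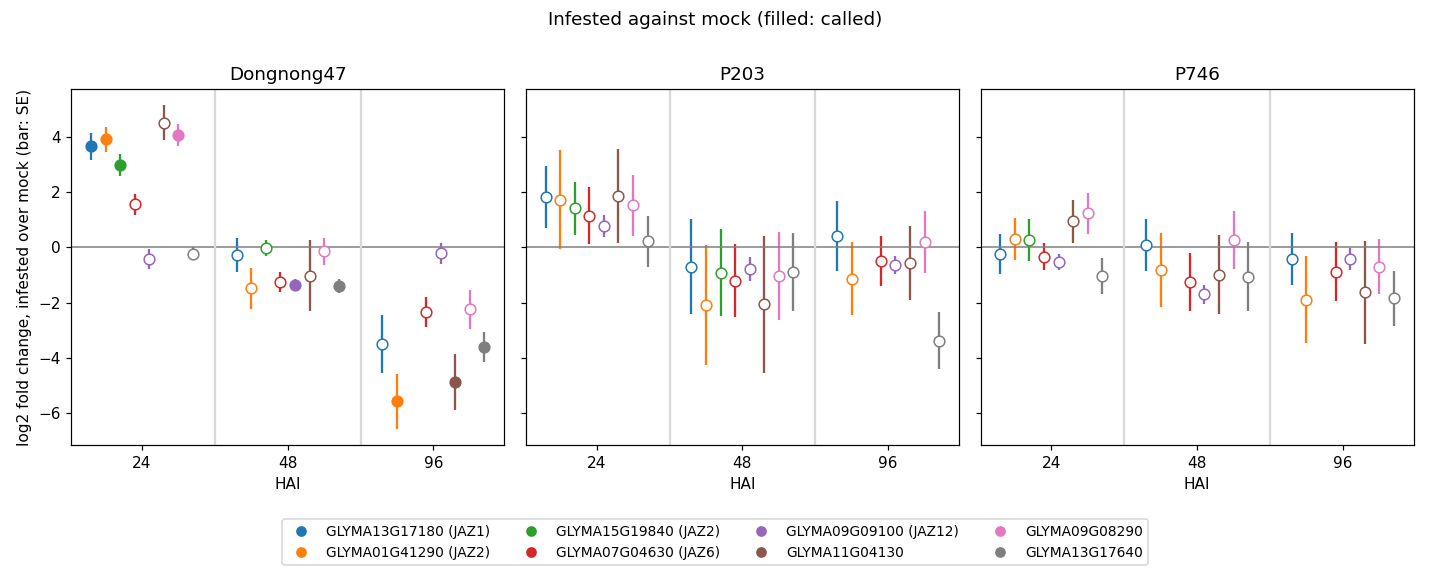
Log2 fold change of infested over mock leaves (y axis, bars are 1 SE) for each JAZ gene at 24, 48 and 96 HAI in the 3 genotypes; filled points were called, and GLYMA15G19840 is left out where libraries had no value for it. In Dongnong47 the estimates go from up to 4.52 at 24 HAI to as low as -5.58 at 96 HAI, and no point is filled in P203 or P746.

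In P203 and P746 no member was called between infested and mock leaves at any time. The share of loci called was 0% in P203 at 24 HAI, 0.0655% at 48 HAI and 4.98% at 96 HAI, and in P746 it was 0%, 0% and 4.85%. At 96 HAI the fit of chromosomes 1 to 13 called only 74 loci higher and 43 lower of 23094 in P746. In P203 it called 828 and 827 of 23208 at 96 HAI and 0 of 22398 at 48 HAI. Of the 45 member tests in these 6 comparisons, 2 had an unadjusted p under 0.05 with edgeR and 2 were called by DESeq2. These were GLYMA13G17640 in P203 at 96 HAI and GLYMA09G09100 (JAZ12) in P746 at 48 HAI, both lower. DESeq2 called 2662 of 32819 and 299 of 32777 loci lower in these comparisons.

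Replicates of P203 differed widely. At 24 HAI GLYMA01G41290 (JAZ2) had 56.7, 0.337 and 8.64 CPM in mock and 2.38, 69.6 and 139.6 CPM in infested leaves, so that all 8 positive estimates of this comparison (median 1.47) were within overlapping groups. At 48 HAI the same gene had 156, 109 and 0.467 CPM in mock and 0.579, 59.99 and 2.11 CPM in infested leaves. GLYMA13G17640 at 96 HAI was the exception to the overlap, with 48.7, 49.2 and 23.7 CPM in mock and 1.54, 0.799 and 9.65 CPM in infested leaves (log2 fold change -3.38, SE 1.02, edgeR adjusted p = 0.117).

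In P746 at 24 HAI GLYMA13G17180 (JAZ1) had 16.3, 56.9 and 17.1 CPM in mock and 11.7, 16.5 and 43.4 CPM in infested leaves, overlapping as did 7 of the 8 members. GLYMA09G09100 (JAZ12) had 200.4, 175 and 208 CPM in mock and 39.7, 74.2 and 62.2 CPM in infested leaves at 48 HAI. These groups were apart (log2 fold change -1.70, SE 0.34), yet with 0 loci called in that comparison the edgeR adjusted p was 0.716.

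The difference between genotypes in the response was tested as an interaction. None of the 45 member tests was called with edgeR, where the share of loci called was 0.0441%, 0.0822% and 0.173% for P203 and 0.0136%, 0.0112% and 0.173% for P746 against Dongnong47 at 24, 48 and 96 HAI. On chromosomes 1 to 13 the edgeR fit called 2 of 24292 loci for P203 at 24 HAI and 0 in every other interaction. With so few loci called, the lack of member calls says nothing of the JAZ genes in particular. Of the 45 member tests, 8 had an unadjusted p under 0.05 and DESeq2 called 4. All 4 were in P746 against Dongnong47 at 24 HAI, where DESeq2 called 277 loci higher and 285 lower of 36822. There GLYMA13G17180 (JAZ1) had an interaction of -3.99 on the log2 scale (SE 0.91, edgeR adjusted p = 0.545, DESeq2 adjusted p = 0.00113), and GLYMA01G41290 (JAZ2) one of -3.70 (SE 0.92, edgeR adjusted p = 0.631, DESeq2 adjusted p = 0.00385). The other members DESeq2 called there were GLYMA11G04130 (-3.66) and GLYMA09G08290 (-2.91). With edgeR, the response in Dongnong47 at 24 HAI was not shown to differ from that in P203 or P746. Of the infested libraries labelled P746 at 24 HAI, replicate 1 had markers against its label and replicate 3 was intermediate, as given above.

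Among mock leaves at 48 HAI, libraries labelled P746 differed from those of Dongnong47. By their markers, given below, these libraries were mostly in the P203 state, so the difference is one between labels. In P746, 6 of the 7 members with values throughout were called higher than in Dongnong47, with 7.32% of loci called higher, and the libraries of all 7 were apart. GLYMA01G41290 (JAZ2) had 2.04, 10.8 and 4.25 CPM in Dongnong47 and 157, 107 and 128 CPM in P746 (log2 fold change 4.52, SE 0.70, edgeR adjusted p = 0.0196). GLYMA11G04130 had 0.466, 4.72 and 1.39 CPM in Dongnong47 and 101, 68.8 and 90.4 CPM in P746 (log2 fold change 5.31, SE 0.94, edgeR adjusted p = 0.0255). GLYMA13G17640 had the smallest adjusted p, with 49.6, 48.1 and 39.1 CPM in P746 (log2 fold change 2.73, SE 0.18, edgeR adjusted p = 0.00927).

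The others were GLYMA13G17180 (JAZ1, log2 fold change 3.93), GLYMA09G08290 (3.69) and GLYMA07G04630 (JAZ6, 3.49). GLYMA09G09100 (JAZ12) fell just short in size (0.99, edgeR adjusted p = 0.0492), and GLYMA15G19840, with 218 CPM in its only P746 library with a value, had a log2 fold change of 3.65 from that 1 library, given with no test. The mock libraries labelled P746 at 48 HAI had the P203 state in 89.7% to 95.6% of the 68 markers, and their part in the result was not tested. Dropping Dongnong47 replicate 1 left 0 calls, Dongnong47 replicate 3 left 3, P746 replicate 1 left 1 and P746 replicate 2 left 3.

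In P203 at 48 HAI, mock replicates 1 and 2 were high and replicate 3 low. GLYMA09G08290 had 176, 127 and 5.23 CPM there against 5.77, 15.8 and 7.45 CPM in Dongnong47. No member was called (edgeR, 3.39% of loci called), 3 had an unadjusted p under 0.05, and edgeR called 7 when P203 replicate 3 was left out. For the fit without that library the share of loci called is not given, so the 7 have no background to be read against. DESeq2 called 3 members, with 2772 loci called higher and 2494 lower of 32218. At 24 and 96 HAI no member was called between mock leaves of the genotypes by either tool, with 0.236% and 0.594% of loci called for P203 and 0.415% and 0.802% for P746, and none had an unadjusted p under 0.05.

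**Figure D3:**
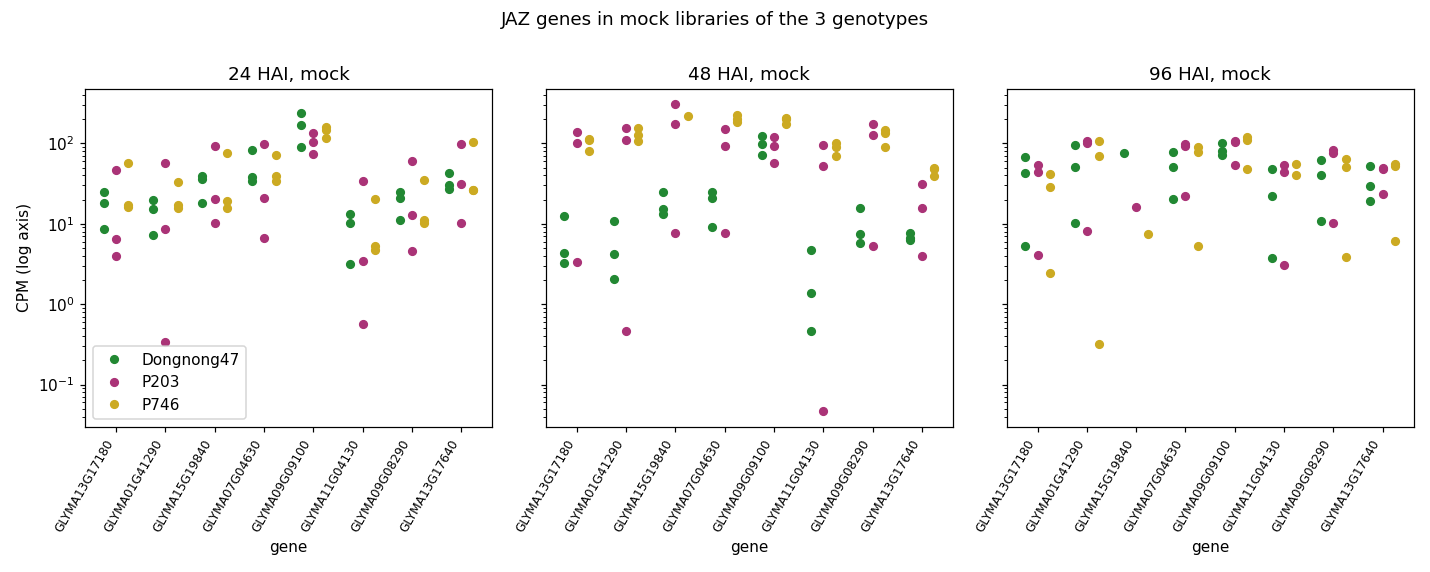
CPM (log axis) of each JAZ gene in the mock libraries of each genotype, with a panel for each time and 1 point per library with a value. At 48 HAI the P746 points lie above the Dongnong47 points, and for 7 of the 8 genes the P203 points run from below 8 CPM to above every Dongnong47 point.

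Within P746 mock leaves, 4 of 7 members were called higher at 48 than at 24 HAI, with 4.24% of loci called higher. GLYMA07G04630 (JAZ6) had 34.3, 71.9 and 38.8 CPM at 24 HAI and 225, 185 and 201 CPM at 48 HAI (log2 fold change 1.96, SE 0.32, edgeR adjusted p = 0.0261). GLYMA01G41290 (JAZ2, 2.46), GLYMA09G08290 (2.63) and GLYMA11G04130 (3.01) were the others, and 6 of the 7 did not overlap between times. The count was 0 without 24 HAI replicate 1 or 3 or 48 HAI replicate 1 or 2, and 2 without 48 HAI replicate 3. The markers given above changed state between these times in the libraries labelled P746, and assembly batch cannot be told apart from time.

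In the other 8 time comparisons no member was called by edgeR, 4 of 62 member tests had an unadjusted p under 0.05 and DESeq2 called 3. All 3 were lower, 1 in infested P203 for 48 against 24 HAI and 2 in mock P746 for 96 against 48 HAI. DESeq2 called 2919 of 33533 and 3295 of 32389 loci lower in these comparisons. The share of loci called by edgeR was 6.97% and 3.71% in P203 mock leaves (48 against 24 and 96 against 48 HAI) and 7.36% and 0.0615% in P203 infested leaves. It was 12.9% in P746 mock leaves from 48 to 96 HAI and 0% in both intervals of P746 infested leaves. The fit of chromosomes 1 to 13 called 71 loci higher and 22 lower of 22700 in P203 mock leaves for 48 against 24 HAI. In P746 mock leaves from 48 to 96 HAI it called 2004 and 1795 of 23170.

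A set of 6 genes moved together from library to library. Over the 15 pairs among GLYMA13G17180, both genes named JAZ2, GLYMA07G04630, GLYMA11G04130 and GLYMA09G08290, Pearson's r of log2(CPM + 1) was 0.918 to 0.985 across the libraries with both values. After subtracting group means, which removes labelled genotype, treatment and time, it was 0.876 to 0.982. Where markers went against the label, as given above, genotype differences inside a group can remain. These are descriptions, since points share library, depth and scaling. GLYMA09G09100 (JAZ12) and GLYMA13G17640 followed less closely, with r of 0.571 to 0.781 and of 0.640 to 0.845 for the deviations.

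**Figure D4:**
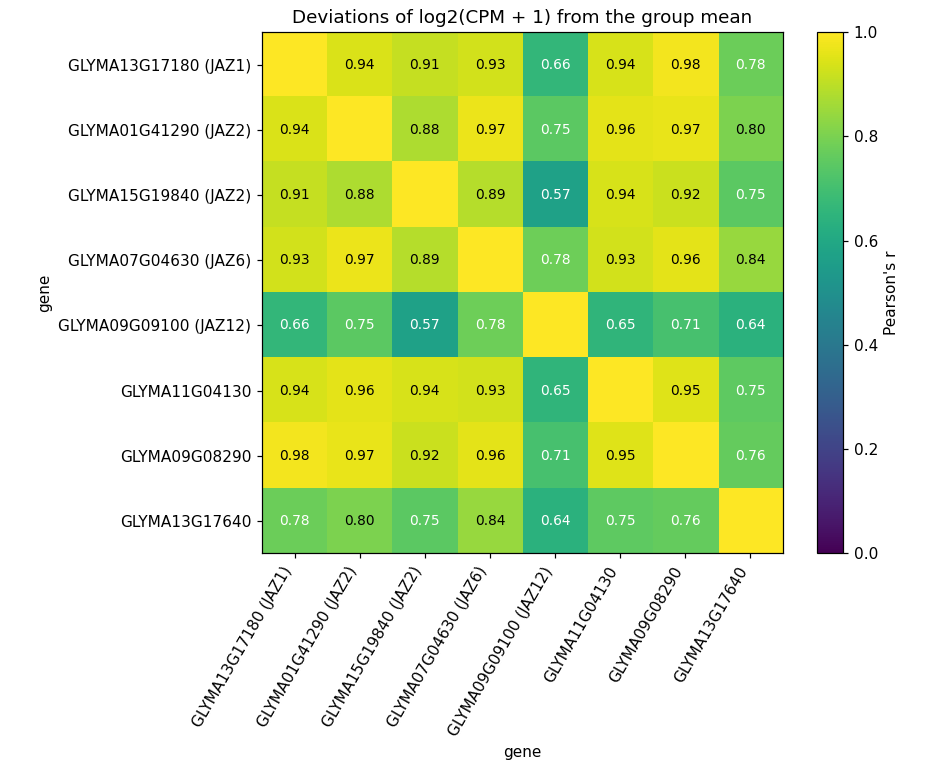
Pearson's r between JAZ genes of the deviations of log2(CPM + 1) from the mean of the library's group, for all pairs (both axes list the genes, colour and number give r). The pairs among 6 genes are between 0.876 and 0.982, and those of GLYMA09G09100 are at most 0.781.

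A single replicate was the highest for all of the 7 members on chromosomes 1 to 13 in 6 of the 18 groups, and a single replicate was the lowest for all 7 in 7 groups. The spread inside groups was large. The highest replicate of a group exceeded the lowest by a median of 7.32 times for GLYMA01G41290 and 11.4 times for GLYMA11G04130, and by 5 times or more in 11 and 10 of 18 groups. For GLYMA09G09100 the median was 1.77 times, and no group reached 5 times. The share of the sum of squares of log2(CPM + 1) that lay within groups was 50.6% for GLYMA01G41290 and 28.0% for GLYMA09G09100. Over all 54 libraries GLYMA09G09100 ran from 32.6 to 235 CPM, and GLYMA01G41290 from 0.317 CPM (P746 mock at 96 HAI replicate 1) to 249 CPM (Dongnong47 infested at 24 HAI replicate 2).

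Genes with a like pattern were sought among 16222 genes of chromosomes 1 to 13 whose mean level was 5 CPM or more, by Pearson's r with the mean standardized profile of the 7 members over the 18 group means. The median r was 0.01, and 11 genes reached 0.9. Among the 427 of them in the study's tables of transcription factors and of JA and salicylic acid genes, the highest were GLYMA02G46730 (GRAS family, r = 0.909), GLYMA03G41901 (bHLH, 0.909), GLYMA07G06090 (bHLH, 0.901) and GLYMA08G36720 (bHLH, 0.893). Of these, GLYMA08G36720 had group means of 74.8 CPM in mock and 221 CPM in infested Dongnong47 at 24 HAI. It was picked by likeness over these same group means, so that difference is no separate result. The study's tables themselves list genes it found differential in these libraries.

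The other JA genes of the study's table, which was chosen on these libraries, were counted in the same fits. In Dongnong47 at 24 HAI, 3 of the 30 tested on chromosomes 1 to 13 were called higher and none lower, with a median log2 fold change of -0.08. GLYMA09G33730 (JIN1, the name of MYC2 in Arabidopsis) had 43.3, 39.96 and 50.6 CPM in mock and 189.5, 288 and 267 CPM in infested leaves (log2 fold change 2.47, SE 0.25, edgeR adjusted p = 0.0202). GLYMA01G41450 (DAD1, in Arabidopsis a lipase that frees the fatty acid precursor of JA) rose by 3.34 and GLYMA13G07490 (AOC4, allene oxide cyclase) by 2.32 on the log2 scale. On chromosome 17, GLYMA17G36530 (AOS, allene oxide synthase) rose by 1.69, while GLYMA19G44310 (JAR1) had no value in the 3 infested libraries and is not read as a change.

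At 48 HAI in Dongnong47, 1 of 30 was called higher, GLYMA02G26160 (LOX2, a lipoxygenase, log2 fold change 5.13), and 2 lower, GLYMA08G04770 (JAZ3, a further repressor, -1.78) and GLYMA03G07570 (FAD8, a fatty acid desaturase, -1.45). Over all loci at 48 HAI, 670 of 32254 were called higher and 1057 lower. At 96 HAI GLYMA10G29490 (LOX1, -2.76) and GLYMA02G11020 (AOC4, -2.76) were called lower, with 800 of 33277 loci called lower. In P203 only GLYMA03G07570 (FAD8, -2.91, at 96 HAI) was called, and in P746 only GLYMA13G42340 (LOX1, 2.92, at 96 HAI). From 24 to 48 HAI in infested Dongnong47, 9 of 31 were lower and 6 higher, where all 7 JAZ members of these chromosomes were lower. Over all loci, 5527 of 34088 were called lower and 5541 higher. Among the 31 JA genes, DAD1 fell by 3.55 and AOC4 (GLYMA13G07490) by 4.02.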

How the data were processed

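RNA of caged leaf areas was sequenced in 54 libraries. Per the paper's methods, the authors mapped reads with HISAT2 to Glycine_max_v2.1 and counted them with StringTie; the labels name CASAVA 1.8 and Bowtie. What the authors deposited is an estimated count for each gene and library (18.0% to 23.3% not whole), rounded here to whole numbers; lines without an identifier (7 libraries) were dropped and absent values taken as 0 unless stated. Comparisons used edgeR 4.0.16 in R 4.3.3 (quasi-likelihood F test after TMM, low loci removed by filterByExpr at min.count 10 and min.total.count 15, p adjusted by Benjamini-Hochberg), in 9 infested, 12 time, 6 genotype and 6 interaction fits of the groups concerned. The standard error was derived from the fold change and F. Alternatives were DESeq2 1.42.0, RLE, no filter, chromosomes 1 to 13, their totals as scale, a replicate block and leaving out libraries. The fits were tested on simulated data. Named genes were all members, other JA genes called (at most 6 a comparison) and the 4 most alike. Members and lists were chosen with earlier results of these data known. No identifier matched the RefSeq table. Per the paper, replicates were biological, from independent samples. Figures used matplotlib.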

Additional observations from a re-analysis of the deposited data

How the results depend on the processing

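The fall of the JAZ genes in infested Dongnong47 from 24 to 48 HAI was called for all members under every alternative run (7 of 7 on chromosomes 1 to 13, 8 otherwise). The other counts were less stable. With DESeq2 the members called were 6 for infestation of Dongnong47 at 96 HAI (3 with edgeR), 1 in P203 at 96 HAI, 1 in P746 at 48 HAI, 2 and 6 in mock Dongnong47 for 48 against 24 and 96 against 48 HAI, 1 in infested P203 for 48 against 24 HAI, 2 in mock P746 for 96 against 48 HAI, 3 between mock P203 and Dongnong47 at 48 HAI and 4 in the P746 interaction at 24 HAI. Scaling by totals of chromosomes 1 to 13 gave 1, 0 and 4 for Dongnong47 at 24 HAI, at 48 HAI and in mock for 96 against 48 HAI, and the fit of chromosomes 1 to 13 gave 2 for the last. Without the filter on low counts, 1 was called in Dongnong47 at 48 HAI and 2 in mock P746 for 48 against 24 HAI. Leaving out Dongnong47 infested replicate 1, whose markers went against its label, gave 1 in Dongnong47 at 96 HAI. In every comparison listed here for DESeq2, it also called more of all loci than edgeR did. The cause of these shifts in member counts was not tested.

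With each library left out in turn, the count ranged from 0 to 5 for infestation of Dongnong47 at 24 HAI, from 0 to 2 at 48 HAI and from 0 to 6 at 96 HAI. It ranged from 0 to 1 and from 0 to 4 in mock Dongnong47 (48 against 24 and 96 against 48 HAI), from 0 to 5 and from 0 to 2 in mock P746, from 0 to 7 between mock P203 and Dongnong47 and from 0 to 6 between mock P746 and Dongnong47, both at 48 HAI. The count for infested Dongnong47 from 24 to 48 HAI stayed at 8, and the remaining counts stayed at 0. Shares of loci called are not given for the fits with a library left out, so these counts have no background to be read against.

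Replicate numbers were not taken as pairs. Deviations of same-numbered infested and mock libraries correlated above 0.1 for every number in 0 of 9 comparisons, and each infested library correlated best with its own number in 2. In Dongnong47 r was 0.566, 0.343 and 0.0907 at 24 HAI, -0.023, -0.217 and -0.188 at 48 HAI and 0.297, 0.0833 and 0.183 at 96 HAI. The rule failed at 24 HAI by replicate 3 only and at 96 HAI by replicate 2 only, so it does not settle pairing there. With the replicate block, 0 members were called in Dongnong47 at 24, 48 and 96 HAI and 0 and 4 in mock Dongnong47 over the first and second interval. It called 0 in mock P746 for 48 against 24 HAI and 1 between mock P746 and Dongnong47 at 48 HAI. Where 0 members were called here, 0 loci were called at all, so these counts say nothing of the JAZ genes in particular. Beside the 4 members, 1416 of 35147 loci were called higher and 2240 lower. Beside the 1 member, these were 897 and 641 of 34377.

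For members not called, the sign of the infested against mock estimate changed 39 times over the alternatives, 26 of them with a library left out, and never for a called member. GLYMA15G19840 in P746 at 48 HAI was -0.22 with the libraries lacking a value left out, an alternative chosen after seeing the data, and positive with them as 0. Group means scaled by chromosome 1 to 13 totals moved by more than 1 SD in 34 of 140 cases. Precision rests on 3 replicates, whose spread for most JAZ genes exceeded 3 times.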
